A study of Homo sapiens with 12 samples.

Results

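The BCL2 family was described here by 10 genes across 4 groups of transfected BT549 cells. The members were taken by name, as the transcript clusters whose only gene symbol is BCL2, BCL2L1, MCL1, BCL2A1, BAX, BAK1, BID, BCL2L11, BBC3 or PMAIP1. A transcript cluster groups the probes along 1 gene and gives 1 value on each array. Each of the 10 genes had 1 such cluster, and they stand among 17958 genes measured in all. Proteins of this family decide whether a cell under stress opens the outer membrane of its mitochondria. The guardians BCL2, BCL-XL, MCL-1 and BFL-1 hold the pore formers BAX and BAK in check, and the BH3-only proteins BIM, PUMA, NOXA and BID release or activate these pore formers. Once the pores open, cytochrome c leaves the mitochondria and caspases are activated. Breast cancer cells often depend on MCL-1 or BCL-XL to survive.

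The BT549 line comes from a triple-negative breast tumour, and the arrays were Affymetrix Human Gene 1.1 ST, with 3 biological replicates per group by the study's methods. Cells received ERβ2 siRNA or control siRNA and gave RNA after 48 h, or received a pcDNA3 plasmid with FLAG-tagged ERβ2 cDNA or the empty vector (EV) and gave RNA after 24 h. ERβ2 is a splice variant of estrogen receptor β. All 4 groups came from this 1 line, the transfections were transient, and siRNA and plasmid used different reagents and different confluency. The labels do not say which siRNA against ERβ2 the arrays used. The values are expression values from RMA, taken as log2, so that a difference of 1 is a doubling of signal, and the number of arrays limits their precision. Differences were tested with limma over all 17958 genes, and rose and fell are written of genes whose p, after Benjamini-Hochberg adjustment, did not exceed 0.1.

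The array medians lay between 5.04 and 5.14. The signal of VIM stood above that of 99.6% of the genes and that of ZEB1 above 91.9%, whereas ESR1 stood above 19.8%, PGR above 10.1% and EPCAM above 20.2%, as ranks of signal. ERBB2 ranked above 68.2%. ESR2, the gene of all ERβ isoforms, had values of 3.80 to 4.12 with ERβ2 siRNA, against 3.88 to 4.05 with control siRNA. Its change of −0.02 (standard error 0.09, limma adjusted p = 0.913) gives no check of the siRNA labels. The signal of ESR2 was dim, above that of 23.2% of the genes. For BT549 cells the study itself reported less ERβ2 mRNA by qPCR after knockdown, and more ERβ2 protein by Western blot after overexpression. With the ERβ2 plasmid ESR2 had values of 4.35 to 4.72, against 3.93 to 4.08 with EV, and the change of 0.47 missed the limit (limma, adjusted p = 0.449). A change in every cell and a change in only some of the transfected cells cannot be told apart in these RNA pools.

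After ERβ2 knockdown the family moved in both directions. Among the 10 members, guardians both rose and fell, the pore formers BAX and BAK1 fell, and BH3-only genes rose or did not pass. Outside the 10 members, BOK, a relative of BAX and BAK, rose by 0.31 (limma adjusted p = 0.0150). The BH3-only gene HRK had a change of −0.38 (limma adjusted p = 0.0758), a call lost when some single arrays were left out. Of the 10 members, 5 rose (PMAIP1, BCL2A1, MCL1, BCL2L11 and BID), 3 fell (BAK1, BCL2L1 and BAX) and 2 did not pass (BCL2 and BBC3). Over all genes, 18.3% rose and 17.5% fell. The largest rise was that of PMAIP1, 1.85-fold, and the largest fall that of BAK1, at 0.648 of the control level. These were also the 2 members that reached a fold change of 1.5 in either direction, which 4.52% of all genes did while passing the test. The median change of the 10 members was 0.09 on the log2 scale, against −0.03 for all genes, and the median size of the change was 0.35, against 0.13 for all genes. In 8 of the 10 members the ERβ2 siRNA arrays lay wholly on 1 side of the control siRNA arrays, which held for 42.4% of all genes. The members were chosen with earlier results of these data known, and the shares of all genes include dim genes. These comparisons describe the 10 members and carry no test.

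**Figure D1:**
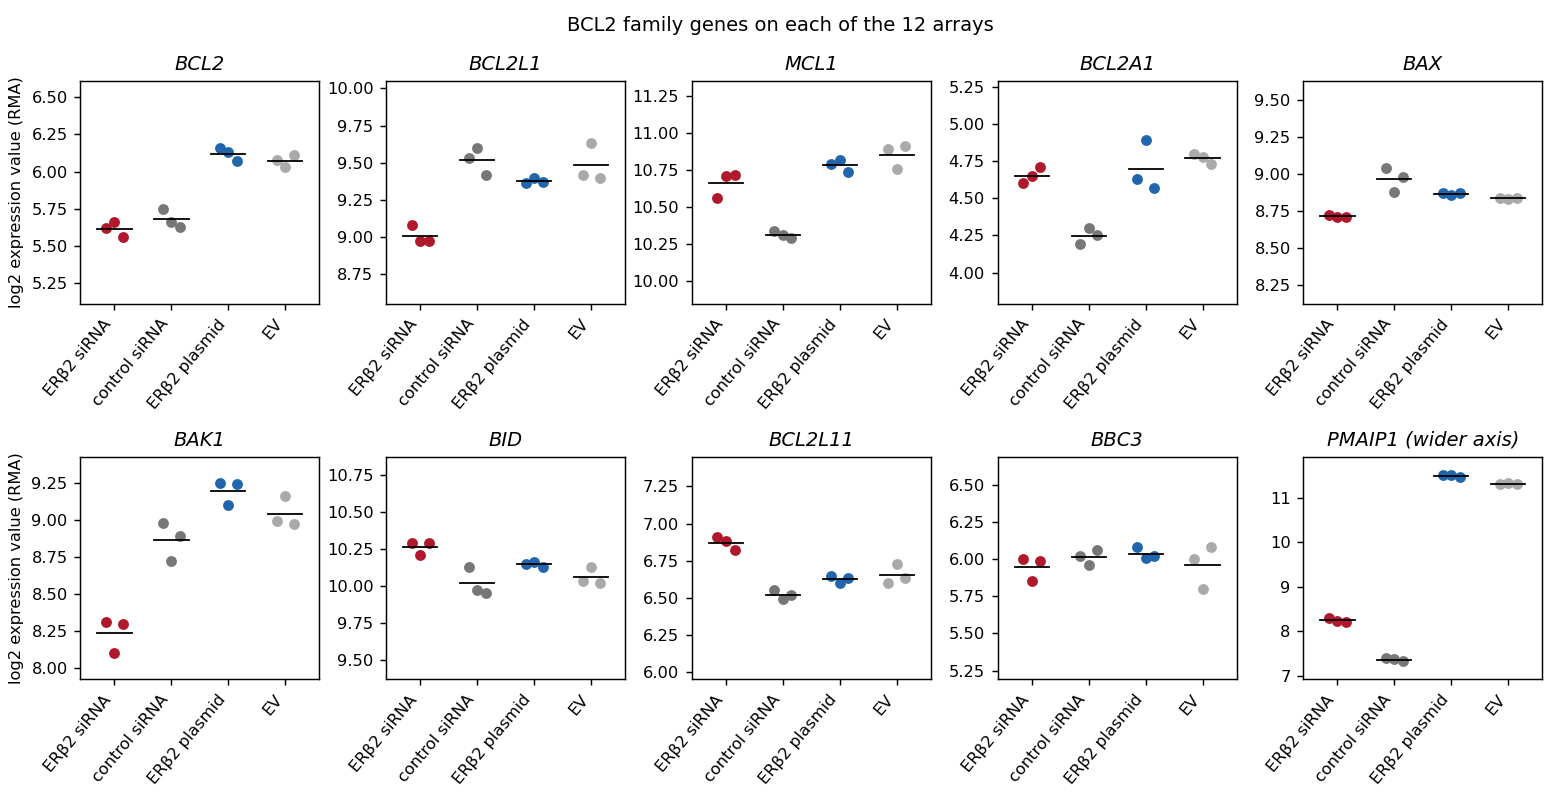
Log2 expression values of the 10 BCL2 family genes (vertical axis) on each array (points) in the 4 groups (horizontal axis), with the group mean as a line and 3 arrays per group. Each vertical axis spans the same range except that of PMAIP1, which is wider, and PMAIP1 stands between 11.31 and 11.51 on the 6 plasmid and EV arrays, against 7.33 to 8.29 on the 6 siRNA arrays.

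Among the guardians, MCL1 and BCL2A1 rose and BCL2L1 fell after ERβ2 knockdown, while BCL2 did not pass the test. BCL2L1 encodes BCL-XL, a long-lived guardian that binds BAX, BAK and the BH3-only proteins. Its log2 value was 9.08, 8.97 and 8.97 with ERβ2 siRNA, against 9.53, 9.60 and 9.42 with control siRNA. All 3 ERβ2 siRNA arrays were below the lowest control array, and the change was −0.51 (95% confidence interval −0.66 to −0.36, limma adjusted p = 7.8e-04). MCL1 encodes a guardian with a short half-life that binds BAK and is the main target of NOXA. MCL1 stood at 10.56, 10.71 and 10.72 with ERβ2 siRNA, against 10.34, 10.31 and 10.29 with control siRNA. The groups did not overlap, and MCL1 rose by 0.35 (standard error 0.06, limma adjusted p = 0.00378), a 1.27-fold change. BCL2A1 encodes BFL-1, a guardian known as an NF-κB target in blood cells. It read 4.60, 4.65 and 4.71 with ERβ2 siRNA, against 4.19, 4.30 and 4.25 with control siRNA, a rise of 0.41 (standard error 0.06, limma adjusted p = 0.00133). Its signal was the dimmest of the 10 members, above that of 31.0% of the genes, and it was the only member with a mean log2 value under 5.

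BCL2, the founding guardian of the family, had log2 values of 5.62, 5.66 and 5.56 with ERβ2 siRNA, against 5.75, 5.66 and 5.63 with control siRNA. The groups overlapped, and the change of −0.07 did not pass (95% confidence interval −0.20 to 0.07, limma adjusted p = 0.442).

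The promoter of BCL2A1 is shown as an example of a gene lowest in the control siRNA group, which also held for MCL1, PMAIP1, BCL2L11 and BID. The motif marked in it was chosen after the values were seen. The sequence is RefSeq's (GRCh38.p14, chr15:79971147-79971446, minus strand) and runs from 250 bases before the start of the gene to 50 bases after it. Of the 10 members, all but MCL1 (9 genes) had such a window in the table, and a gene with several windows was counted where any of them held a match. The letters GAAANNGAAA, the core of an interferon-stimulated response element, were searched on both strands and are in capitals below, where they read on the opposite strand at positions −133 to −124 from the start. They were found for BCL2A1 and BBC3, and in 3.57% of the 35116 windows of this length in the table. A match is a description of these letters and not a site of binding.
BCL2A1: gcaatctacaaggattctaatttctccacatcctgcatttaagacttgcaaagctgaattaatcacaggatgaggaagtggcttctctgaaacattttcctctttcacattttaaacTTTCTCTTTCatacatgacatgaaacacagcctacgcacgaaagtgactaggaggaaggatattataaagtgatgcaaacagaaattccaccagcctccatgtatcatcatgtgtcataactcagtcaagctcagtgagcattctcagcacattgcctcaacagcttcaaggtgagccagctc

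BAK1 and BAX, the pore formers among the members, both fell after ERβ2 knockdown. BAK1 encodes BAK, which sits in the outer mitochondrial membrane and is held by MCL-1 and BCL-XL. Its log2 value was 8.31, 8.10 and 8.30 with ERβ2 siRNA, against 8.98, 8.72 and 8.89 with control siRNA. Every ERβ2 siRNA array was below every control array, with a change of −0.63 (95% confidence interval −0.82 to −0.43, limma adjusted p = 0.00104). BAX, which moves from the cytosol to mitochondria when activated, stood at 8.72, 8.71 and 8.71 with ERβ2 siRNA, against 9.04, 8.88 and 8.98 with control siRNA. The ERβ2 siRNA arrays had an SD of 0.01 and lay below all control arrays, and the change of −0.25 passed the test (standard error 0.06, limma adjusted p = 0.0140). By size, the change of BAK1 ranked 677 among the 17958 genes and that of BAX 4366.

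The promoter of BAK1 is shown because it had the largest fall of the family. It lies at chr6:33580227-33580526 on the minus strand (RefSeq, GRCh38.p14), and the capitals mark a p53 half-site, which matches on both strands, at positions −73 to −64 from the start. BAK1 was the only one of the 9 members with a window that held this motif, which was found in 6.63% of all windows. The estrogen response element half-site AGGTCA, searched on both strands, was in the windows of none of the 9 members and in 13.8% of all windows. For each motif members are counted by gene and the share by window, and no difference between them was tested. These letters do not show where ERβ2 binds.
BAK1: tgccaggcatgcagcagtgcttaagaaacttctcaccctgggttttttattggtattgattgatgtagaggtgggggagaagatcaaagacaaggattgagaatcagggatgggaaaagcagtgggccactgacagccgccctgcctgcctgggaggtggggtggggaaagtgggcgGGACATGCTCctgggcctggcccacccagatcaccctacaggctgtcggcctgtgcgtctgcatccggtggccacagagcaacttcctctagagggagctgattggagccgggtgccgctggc

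Among the BH3-only members, PMAIP1, BCL2L11 and BID rose after ERβ2 knockdown and BBC3 did not pass. PMAIP1 encodes NOXA, a small protein that binds MCL-1 and BFL-1 and is induced by p53, by the integrated stress response and by viral RNA. Its log2 value was 8.29, 8.24 and 8.22 with ERβ2 siRNA, against 7.39, 7.37 and 7.33 with control siRNA. The groups did not overlap, and PMAIP1 rose by 0.89 (standard error 0.05, 95% confidence interval 0.76 to 1.01, limma adjusted p = 1.8e-05), which ranked 176 among the rises of all 17958 genes. BCL2L11 encodes BIM, which binds all guardians and is known to be induced by FOXO3 and marked for degradation by ERK. BCL2L11 read 6.91, 6.88 and 6.82 with ERβ2 siRNA, against 6.55, 6.49 and 6.52 with control siRNA. The groups did not overlap, and the rise was 0.35 (standard error 0.05, limma adjusted p = 0.00195).

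BID, which caspase-8 cuts into its active form downstream of death receptors, had log2 values of 10.29, 10.21 and 10.29 with ERβ2 siRNA, against 10.13, 9.97 and 9.95 with control siRNA. All ERβ2 siRNA arrays were above the control arrays, and BID rose by 0.25 (standard error 0.07, limma adjusted p = 0.0248), the smallest change among the 8 members that passed. BBC3 encodes PUMA, a direct target of p53 in many cell types. It read 6, 5.85 and 5.99 with ERβ2 siRNA, against 6.02, 5.96 and 6.06 with control siRNA. The groups overlapped, and the change of −0.07 did not pass (95% confidence interval −0.21 to 0.08, limma adjusted p = 0.472).

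The promoter of PMAIP1 is shown because this gene had the largest change of the family in every contrast but that between both effects, where BAK1 had a larger one. It lies at chr18:59899746-59900045 on the plus strand (RefSeq, GRCh38.p14). The capitals mark the half-site of the cyclic AMP response element, TGACG, which was searched on both strands and reads here on the opposite strand at positions −55 to −51 from the start. It was found for PMAIP1, BCL2, BCL2L1 and BAX, that is for 4 of the 9 members with a window, and in 24.6% of all windows.
PMAIP1: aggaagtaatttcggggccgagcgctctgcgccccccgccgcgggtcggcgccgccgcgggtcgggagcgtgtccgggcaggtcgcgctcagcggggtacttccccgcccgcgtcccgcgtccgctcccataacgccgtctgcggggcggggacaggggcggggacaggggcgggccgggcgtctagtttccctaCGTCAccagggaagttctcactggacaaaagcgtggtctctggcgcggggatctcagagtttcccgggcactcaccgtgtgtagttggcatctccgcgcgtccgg

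Overexpression of ERβ2 left no member past the test. By limma, 0 of the 10 members were called, and 0.0111% of all genes were (LIF and H2BC8). ESR2 itself missed the limit in this contrast, with a change of 0.47 (limma, adjusted p = 0.449). At an unadjusted p under 0.05 by limma there was 1 member, PMAIP1, against 7.02% of all genes, and no member passed by the t-test of the methods with Benjamini-Hochberg or q-values. PMAIP1 stood at 11.51, 11.50 and 11.46 with the ERβ2 plasmid, against 11.31, 11.32 and 11.31 with EV. All 3 plasmid arrays were above the EV arrays, and the difference of 0.18 (standard error 0.05, 95% confidence interval 0.06 to 0.29) had an adjusted p of 0.548 from limma. With an intensity trend and a robust prior in the same test it passed (limma adjusted p = 0.0710), where 44 genes did so in all.

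BAK1 read 9.25, 9.10 and 9.24 with the ERβ2 plasmid, against 8.99, 9.16 and 8.97 with EV. The groups overlapped through the second array of each, and the change of 0.16 did not pass (95% confidence interval −0.01 to 0.32, limma adjusted p = 0.732). BAX stood at 8.87, 8.86 and 8.87 with the ERβ2 plasmid, against 8.84, 8.83 and 8.84 with EV. These groups did not overlap, yet the difference was 0.03 (limma adjusted p = 0.929). BAX and PMAIP1 were the only 2 of the 10 members whose plasmid and EV arrays did not overlap, which held for 12% of all genes. The other 7 members had changes from −0.11 for BCL2L1 to 0.09 for BID, with adjusted p from 0.810 for BID to 0.948 for BCL2L11. Their intervals reached at most 0.27 in size, the lower bound of both BCL2L1 and BCL2A1.

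**Figure D2:**
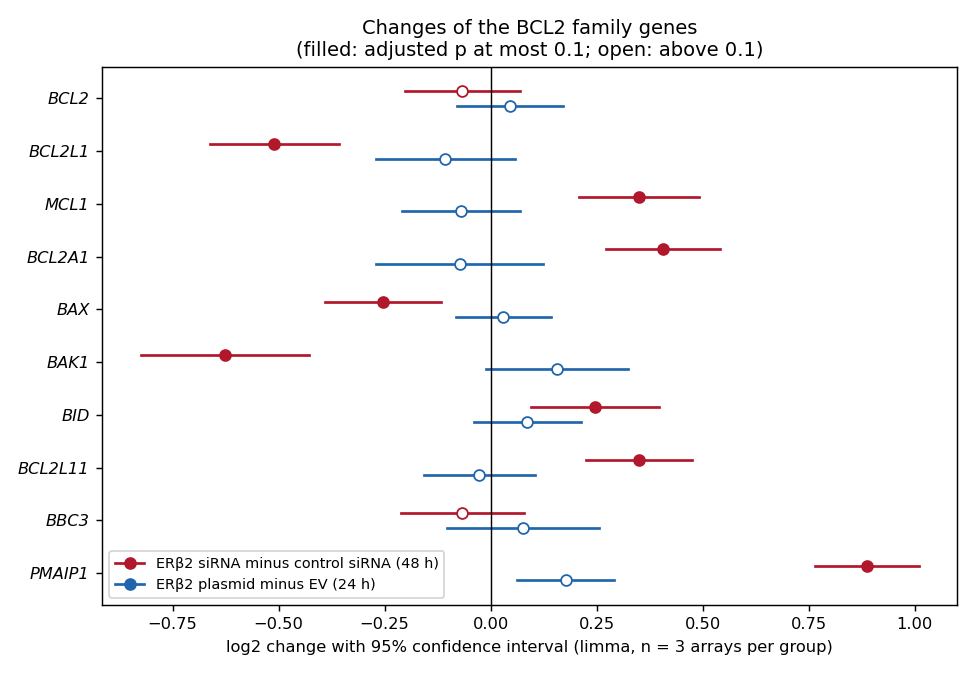
Log2 changes of the 10 BCL2 family genes (horizontal axis, with 95% confidence intervals from limma, 3 arrays per group) after ERβ2 knockdown (red) and with the ERβ2 plasmid (blue), where filled points have an adjusted p of at most 0.1. In red 8 members lie away from 0, 5 to the right and 3 to the left, from 0.89 for PMAIP1 to −0.63 for BAK1, and no blue point is filled.

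For 7 of the 10 members the effect of knockdown differed from the effect of overexpression in 1 fit over all 12 arrays. Knockdown was read at 48 h and overexpression at 24 h, with different reagents and confluency. These cannot be told apart from the direction of the ERβ2 change. No member passed with the plasmid, so the difference largely repeats the change after knockdown. The difference is the change with ERβ2 siRNA minus the change with the ERβ2 plasmid. It was above 0 for PMAIP1, BCL2A1, MCL1 and BCL2L11 and below 0 for BAK1, BCL2L1 and BAX, that is 4 and 3 of the 10 members, against 15.0% and 11.3% of all genes. BAK1 had the largest difference, −0.78 (standard error 0.12, limma adjusted p = 5.3e-04), made of −0.63 with ERβ2 siRNA and 0.16 with the ERβ2 plasmid. PMAIP1 had a difference of 0.71 (standard error 0.06, limma adjusted p = 9.5e-06), and here both changes were positive. BID, with 0.16 (limma adjusted p = 0.203), BBC3 with −0.14 (limma adjusted p = 0.356) and BCL2 with −0.11 (limma adjusted p = 0.321) did not pass.

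The widest contrast in the family lay between the siRNA arrays and the plasmid arrays and concerned PMAIP1. EV arrays stood at 11.31, 11.32 and 11.31, against 7.39, 7.37 and 7.33 with control siRNA. The EV value was higher by 3.95 on the log2 scale (standard error 0.06, limma adjusted p = 8.4e-10), a 15.5-fold difference that ranked 25 among the rises of the 17958 genes. EV and control siRNA differ in time, reagent, confluency and kind of nucleic acid together, and the part of each cannot be told apart. The control siRNA arrays enter this contrast and that of the knockdown, so the values of both stand side by side and are not independent. The change of PMAIP1 with ERβ2 siRNA, 0.89, was measured at a far lower level than its change with the ERβ2 plasmid, 0.18.

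Of the other members, MCL1, BCL2A1 and BCL2 were also higher with EV than with control siRNA, so that 4 of 10 members were higher and 0 were lower, against 19.2% and 22.4% of all genes. At an unadjusted p under 0.05 from limma none was lower either, and by the q-value of the methods' test 1 was, BAX, with a change of −0.13 and a q-value of 0.0413. MCL1 stood at 10.89, 10.76 and 10.91 with EV, against 10.34, 10.31 and 10.29 with control siRNA, a change of 0.54 (standard error 0.06, limma adjusted p = 3.8e-04). BCL2A1 read 4.80, 4.78 and 4.73 with EV, against 4.19, 4.30 and 4.25 with control siRNA, a change of 0.52 (standard error 0.06, limma adjusted p = 3.2e-04). BCL2 had 6.08, 6.03 and 6.11 with EV, against 5.75, 5.66 and 5.63 with control siRNA, a change of 0.39 (standard error 0.06, limma adjusted p = 0.00177). In these 3 genes and in PMAIP1 no EV array overlapped a control siRNA array, which also held for BAX and BCL2L11 without passing the test. These are 6 of the 10 members, against 47.2% of all genes. The other 6 members had changes from −0.13 for BAX to 0.18 for BAK1 and did not pass.

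Across the 4 groups the order of the means differed from member to member. For PMAIP1 it ran, from the highest down, ERβ2 plasmid, EV, ERβ2 siRNA and control siRNA, and no neighbours in this order overlapped. For MCL1 the order was EV, ERβ2 plasmid, ERβ2 siRNA and control siRNA, and the arrays of the upper pair overlapped. BCL2A1 had the same order, and there only the control siRNA group stood clear of its neighbour. For BCL2 the plasmid and EV arrays, 6.03 to 6.16, were above all siRNA arrays, 5.56 to 5.75, and within each pair the arrays overlapped. In BCL2L1 and BAK1 the ERβ2 siRNA group was lowest and clear of the other 3, whose neighbours overlapped. BAX had all 4 groups apart, in the order control siRNA, ERβ2 plasmid, EV and ERβ2 siRNA, over a range of means of 0.25. The gaps were small, with the lowest control siRNA array at 8.88 and the highest ERβ2 plasmid array at 8.87. For BAX, neither ERβ2 plasmid against EV nor EV against control siRNA passed the test. BCL2L11 and BID were highest with ERβ2 siRNA and clear of the next group, EV for BCL2L11 and ERβ2 plasmid for BID, and BID had overlaps among the other 3. In BCL2L11 the EV and ERβ2 plasmid arrays overlapped and the control siRNA arrays were below both. BBC3 did not separate any neighbours, with means that differed by 0.09 at most.

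The genes with the pattern most like that of PMAIP1 and of BAK1, the members that changed at least 1.5-fold after knockdown, were found by the smallest root mean square difference over the 12 arrays, with each gene centred on its own mean. For PMAIP1 they were TLR3 (0.22), a receptor of double-stranded RNA, DDX60L (0.24), a helicase-like gene, and HERC5 (0.24), a ligase for the ubiquitin-like protein ISG15. The spread of PMAIP1 itself around its mean was 1.83 on this measure. Between EV and control siRNA these genes differed by 3.72, 4.02 and 4.12, and after ERβ2 knockdown they changed by 0.31, 0.45 and 0.48, less than the 0.89 of PMAIP1. For BAK1 the nearest genes were PODXL (0.08), a sialomucin of the cell surface, SLC36A1 (0.09), an amino acid transporter of lysosomes, and FOSL1 (0.10), the AP-1 subunit FRA-1. The measure for BAK1 itself was 0.38. All 12 arrays enter these distances, which describe likeness and carry no test.

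**Figure D3:**
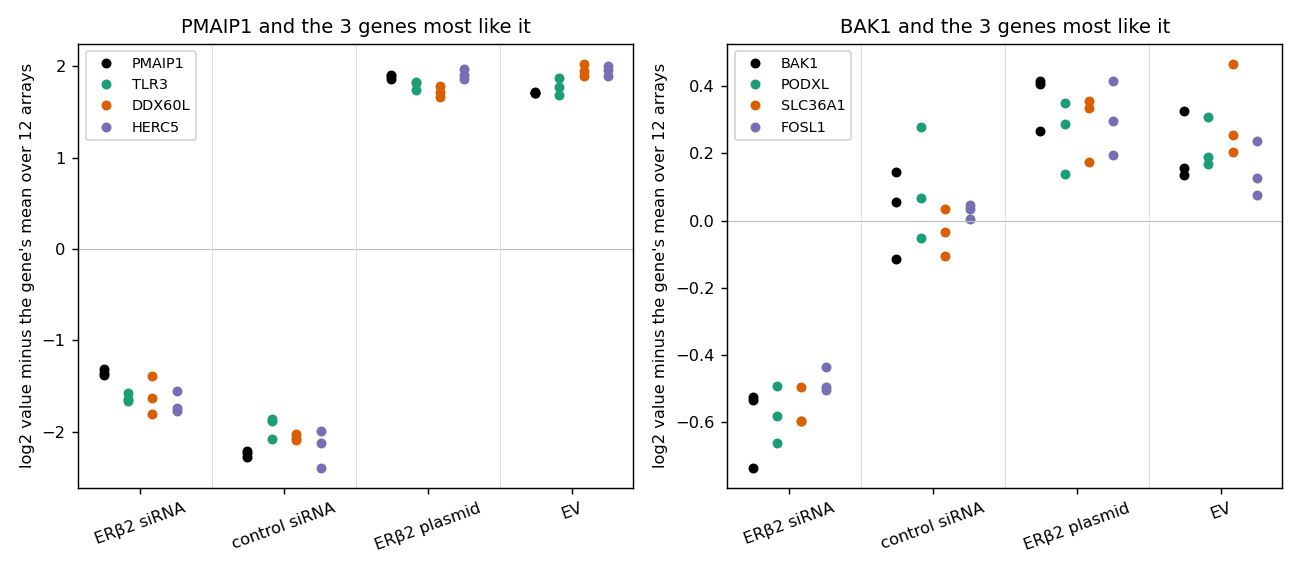
Log2 value minus the mean of the gene over the 12 arrays (vertical axis) for PMAIP1 (left) and BAK1 (right) with the 3 genes most like each, by group (horizontal axis), with a point per array. PMAIP1, TLR3, DDX60L and HERC5 are low on the siRNA arrays and high on the plasmid and EV arrays, and BAK1 and its 3 genes are lowest with ERβ2 siRNA.

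The other genes of mitochondrial cell death were read from 7 lists with 61 genes, 53 of them measured here. After ERβ2 knockdown 15 of these 53 rose, 15 fell and 23 did not pass, where 18.3% of all genes rose and 17.5% fell. The median change of the 53 was −0.03, the same to 2 decimals as that of all genes. With each array centred on its median 18 rose and 11 fell. Of these 30 calls, 19 held whichever array was left out and 11 did not. The counts of the single lists are to be read against the same shares of all genes. Of 13 further relatives of BCL2, 3 rose, 3 fell and 7 did not pass (median −0.03). BNIP3, a BH3-like gene of mitochondrial clearance that is induced by HIF-1, rose by 0.50 (standard error 0.05, limma adjusted p = 2.6e-04) and BOK, a relative of BAX and BAK, by 0.31 (standard error 0.07, limma adjusted p = 0.0150). BCL2L12 had a change of −0.54 (standard error 0.09, limma adjusted p = 0.00234), HRK, a BH3-only gene known from neurons, of −0.38 (standard error 0.14, limma adjusted p = 0.0758) and BCL2L10 of −0.24 (standard error 0.09, limma adjusted p = 0.0822). HRK and BCL2L10 each lost their call in 4 of the 6 omissions of 1 array, with a limma adjusted p of up to 0.208 for HRK and 0.224 for BCL2L10. HRK also did not pass by the t-test of the methods, with Benjamini-Hochberg or q-values, or in 1 fit for all groups. BCL2L10 did not pass under the 3 other normalizations, by that t-test with Benjamini-Hochberg, or with a replicate block.

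Downstream of the pores, 3 of 6 genes rose and none fell (median 0.07). CYCS, cytochrome c itself, rose by 0.56 (standard error 0.06, limma adjusted p = 2.4e-04), DIABLO, which blocks inhibitors of apoptosis proteins, by 0.19 (limma adjusted p = 0.0574) and CASP6 by 0.15 (limma adjusted p = 0.0748). Among 5 inhibitors of apoptosis proteins, BIRC6 rose by 0.43 (standard error 0.07, limma adjusted p = 0.00317) and BIRC2 by 0.17 (limma adjusted p = 0.0742), whereas BIRC5, which encodes survivin, a protein of dividing cells, had a change of −0.26 (limma adjusted p = 0.0265). Of 7 mitochondrial partners, none rose and 4 fell (median −0.21). DNM1L, which cuts mitochondria, had a change of −0.46 (standard error 0.06, limma adjusted p = 0.00105), MFN2, which joins them, of −0.40 (standard error 0.08, limma adjusted p = 0.00587), VDAC1, a channel of the outer membrane, of −0.31 (limma adjusted p = 0.0741) and OPA1, which joins inner membranes, of −0.21 (limma adjusted p = 0.0273). The calls of DIABLO and BIRC2 were lost in 4 of the 6 omissions of 1 array and those of CASP6 and VDAC1 in 5, with an adjusted p of at most 0.208, that of VDAC1. OPA1 and VDAC1 did not pass with arrays centred on their medians, nor BIRC5 with the cluster of lowest mean. By the t-test of the methods with Benjamini-Hochberg, DIABLO, BIRC2 and VDAC1 did not pass. CASP6 did not pass after a further quantile normalization, with a trend and robust prior, or in 1 fit for all groups.

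Upstream, 3 of 9 measured factors that induce BH3 genes rose and 4 fell (median −0.12). DDIT3, which encodes CHOP and is known to induce BCL2L11, rose by 0.27 (standard error 0.06, limma adjusted p = 0.0110) and ATF4, a factor of the integrated stress response, by 0.21 (standard error 0.05, limma adjusted p = 0.0202). EGR1 had a change of −0.51 (standard error 0.06, limma adjusted p = 3.1e-04), FOXO3 of −0.27 (limma adjusted p = 0.0344) and TP73 of −0.26 (limma adjusted p = 0.0425). FOXO3 lost its call when replicate 2 of control siRNA was left out, or replicate 1 of ERβ2 siRNA (adjusted p up to 0.109), and TP73 in 4 of the 6 omissions (up to 0.130). ATF4 did not pass with the cluster of lowest mean, and FOXO3 and TP73 did not pass by the t-test of the methods with Benjamini-Hochberg. Of 7 genes that turn over the MCL-1, NOXA and BIM proteins, 1 rose and 2 fell (median 0.05). BTRC, an adaptor of a ubiquitin ligase, had a change of −0.75 (standard error 0.09, limma adjusted p = 4.1e-04), UBE2C, a ubiquitin-conjugating enzyme of mitosis, of −0.40 (standard error 0.06, limma adjusted p = 0.00191), and MAPK3, which encodes ERK1, rose by 0.25 (limma adjusted p = 0.0196). In the death receptor branch that leads to BID, 3 of 6 genes rose and 1 fell (median 0.21). FAS rose by 0.62 (standard error 0.06, limma adjusted p = 1.5e-04), CASP8, the protease that cuts BID, by 0.33 (standard error 0.05, limma adjusted p = 0.00250) and CFLAR, its inhibitor, by 0.32 (standard error 0.08, limma adjusted p = 0.0186), while TNFRSF10B, a receptor of TRAIL, had a change of −0.33 (standard error 0.05, limma adjusted p = 0.00230).

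**Figure D4:**
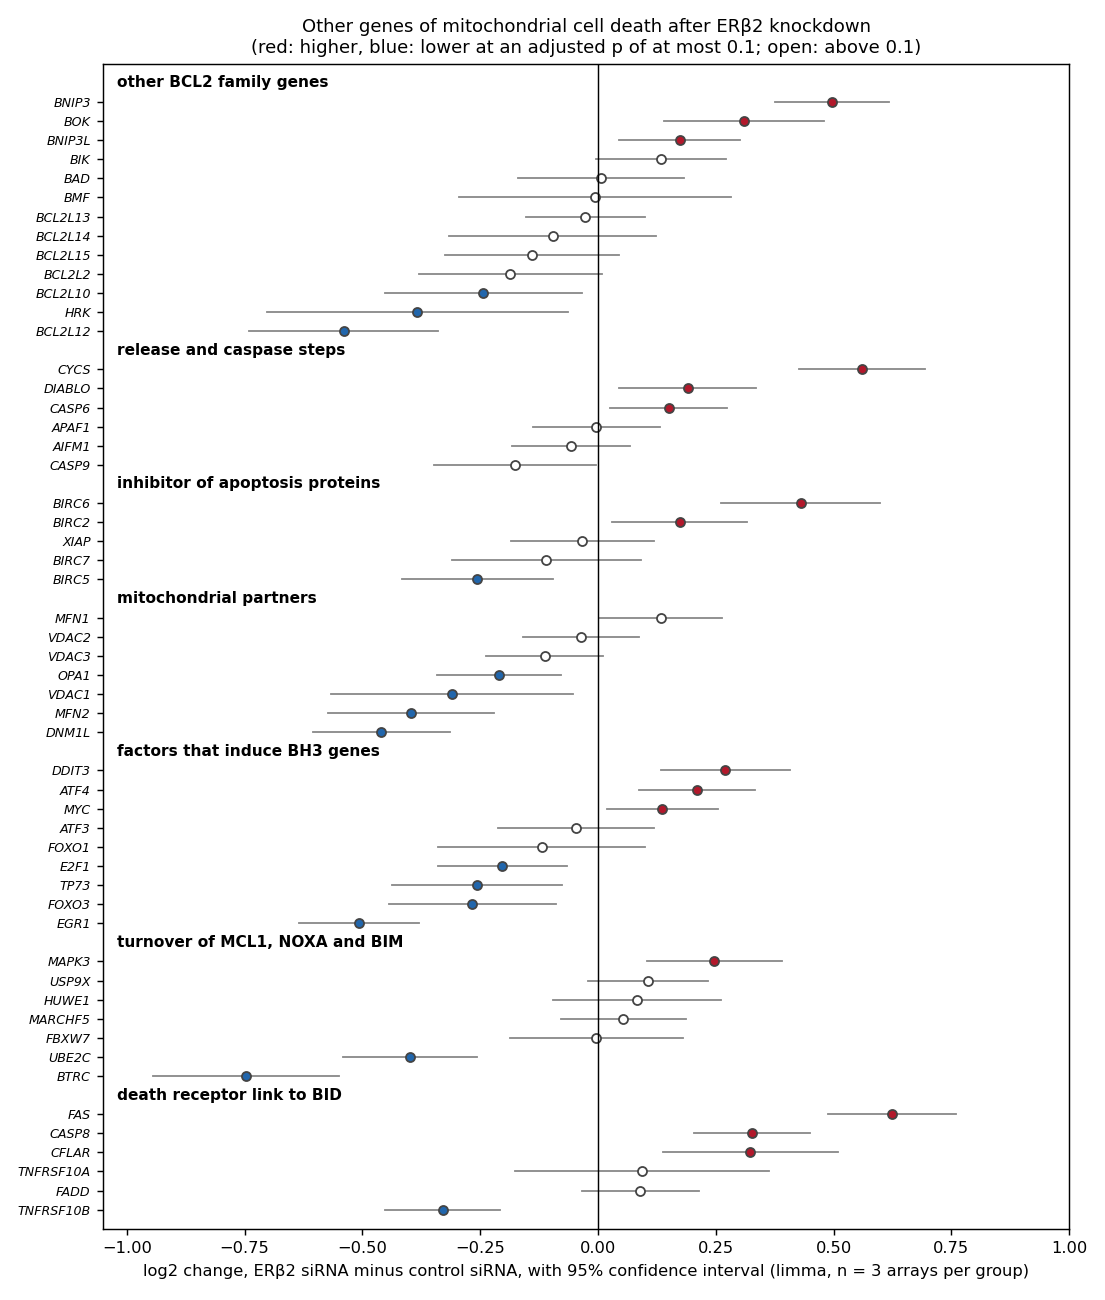
Log2 change after ERβ2 knockdown (horizontal axis, ERβ2 siRNA minus control siRNA, with 95% confidence intervals from limma, 3 arrays per group) of 53 further genes of mitochondrial cell death in 7 lists (rows), with genes that rose in red, genes that fell in blue and genes that did not pass as open points. They run from 0.62 for FAS to −0.75 for BTRC, and each list but those of the release and caspase steps and the mitochondrial partners holds both colours.

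With the ERβ2 plasmid 0 of the 53 listed genes passed the test in limma, and 8 had an unadjusted p under 0.05, against 7.02% of all genes. The smallest adjusted p was that of DDIT3, 0.449, with a change of 0.26. Between EV and control siRNA 14 of the 53 were higher and 12 lower, against 19.2% and 22.4% of all genes. EGR1 was higher with EV by 2.05 (standard error 0.06, limma adjusted p = 5.2e-08), ATF3 by 1.13 (standard error 0.09, limma adjusted p = 3.9e-05) and DDIT3 by 0.89 (standard error 0.06, limma adjusted p = 2.1e-05). CFLAR was higher by 0.87 (standard error 0.09) and BIRC2 by 0.74 (standard error 0.07), while CASP9, the initiator caspase of the mitochondrial pathway, had a change of −0.81 (standard error 0.08, limma adjusted p = 1.1e-04). These genes were named for the size of their change after it was seen.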

How the data were processed

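Total RNA of 12 BT549 samples, 3 in each of 4 groups, was measured on the Human Gene 1.1 ST array of Affymetrix. The authors made the deposited log2 values, given to 2 decimals, with RMA in the Affymetrix Expression Console (background correction, normalization between arrays, probe summary). The sources do not state the base of the logarithm, and 2 was assumed. The software version and the genome build are not given in the sources used here.

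Of 33297 transcript clusters, 19181 had 1 gene symbol in the probe annotation, 2055 had several and 12061 were not listed. Symbols were updated by gene ID through the RefSeq table of GRCh38.p14, where 19143 matched. Where a gene had several clusters, that of highest mean over all arrays stood for it, which gave 17958 genes, with no filter on low values. Of the 61 genes of the fixed lists, the 8 without a cluster of their own symbol alone are not analysed here.

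The limma package (3.58.1, R 4.3.3) was fitted by lmFit and eBayes without a replicate block on the 2 groups compared, and the difference between both effects on all 12 arrays. P-values were adjusted by Benjamini-Hochberg over all genes, with the limit of 0.1 that the methods set for the q-value. The methods also required a t-test p under 0.05 and a fold change of at least 1.5. That fold cut-off was only an alternative here, and it left 2 of the 10 members after knockdown. The methods call the 3 samples of a group biological replicates. The procedure was run on simulated data with independent normal errors, for the knockdown and plasmid contrasts only. The members and lists were chosen with earlier results of these data known, and the motifs after the values were seen. Named were all members, per list up to 5 genes with the largest change among those passing after knockdown, and for each member passing at 1.5-fold or more the 3 genes most like it. The alternatives were 3 other normalizations, a filter on dim genes, other choices of clusters, an intensity trend with a robust prior, the t-test of the methods with Benjamini-Hochberg or q-values, 1 fit for all groups, a replicate block, other thresholds and leaving out each array. Promoter sequences come from RefSeq.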

Additional observations from a re-analysis of the deposited data

Results flagged for a closer look

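The effects of ERβ2 knockdown and of ERβ2 overexpression differed for 7 members by the test of the difference itself (limma over all 12 arrays, adjusted p over all genes). Over all genes, 15.0% passed with a positive difference and 11.3% with a negative one. No member passed with the plasmid, so the difference largely repeats the change after knockdown. On the log2 scale the difference, knockdown effect minus plasmid effect, was 0.71 for PMAIP1 (adjusted p = 9.5e-06), 0.48 for BCL2A1 (0.00662), 0.42 for MCL1 (0.00360) and 0.38 for BCL2L11 (0.00272). It was −0.78 for BAK1 (5.3e-04), −0.40 for BCL2L1 (0.0115) and −0.28 for BAX (0.0121). The knockdown arrays were taken at 48 h and the plasmid arrays at 24 h, so the time and the reagent cannot be told apart from the direction of the ERβ2 change. Groups of 3 arrays are too small for a test of single outlying arrays, and none was made.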

How the results depend on the processing

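After knockdown, the 8 calls among the members held in every alternative, the replicate block and the omission of any 1 array included, except with a 1.5-fold cut-off, which left 2 members, and the dim filter, which removed BCL2A1. The adjusted p of BID was the nearest to the limit, 0.0835 at its highest. Of the 30 listed genes called, the same cut-off left 2, and an adjusted p of at most 0.05 left 22 (10 higher, 12 lower). With 1 array omitted, 22 to 29 of all 53 listed genes passed, a count that includes genes outside the 30. Centring on the array median gave 18 higher and 11 lower, in place of 15 and 15. With the plasmid, a trend and robust prior called 1 member (PMAIP1) and 2 listed genes (DDIT3 and MYC) in place of 0. For the difference between both effects the cut-off left 2 members and 3 listed genes, and BID passed without control siRNA replicate 1 (adjusted p = 0.0604). Between EV and control siRNA, q-values called 7 members and the cut-off 1, with 6 listed genes. There BAX passed in 3 settings, BCL2L11 in 3 and BAK1 in 3, one of them without control siRNA replicate 1 (0.0932). No called value changed sign, and 7 values that did not pass did so. Same-numbered arrays shared no clear deviation (correlations 0.22, 0.14 and 0.01 for knockdown, −0.14, −0.09 and 0.10 for the plasmid), so the numbers were not taken as pairs, and with the replicate block 8 members passed after knockdown and 0 with the plasmid. BCL2A1 and BCL2 have dim signals, and 3 arrays per group limit what can be detected.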
